A study of Mus musculus with 4 samples.

Results

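Mucins and genes of mucus-secreting cells were examined in sorted cells of the mouse main olfactory epithelium (MOE). The set was fixed by name, with earlier results of these data known. It held 8 genes, namely *Muc2*, *Muc5ac*, *Muc5b*, *Muc1*, *Muc4*, *Muc16*, *Agr2*, and *Spdef*. Values were found for 7 of them among the 24421 genes with a value. *Muc16* was searched under 5 symbols, and its expression was not analysed here. The samples were FACS-sorted cells of 2 transgenic lines, which the labels give as C57BL/6 and the Reporting Summary counts among lines of mixed background, each carrying a PiggyBac transgene in which a TAAR enhancer drives a reporter from the Hsp68 minimal promoter. The TAAR enhancer 1-GFP line gave GFP-positive (GFP+) and GFP-negative (GFP-) cells. The TAAR enhancer 2-tdTomato line gave tdTomato-positive (tdTomato+) and tdTomato-negative (tdTomato-) cells. The study kept 1 founder line for each transgene. The labels call the mice adult, while the Reporting Summary gives 14 days postnatal for the GFP line and 14 to 21 days for the tdTomato line. Neither source states how many animals were pooled. Each of the 4 groups has 1 library, so no difference below could be set against a spread between replicates, and no test was possible.

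Expression was given as TPM, a transcript level corrected for transcript length and scaled to the same total of 1000000 in every library. The number of reads behind each value is unknown. Between 15096 and 16840 genes were above 0 TPM, and the 10 highest genes made up 31.5% of GFP+ TPM and between 5.72% and 9.44% elsewhere. Differences are of log2(TPM + 1), a scale that understates the change of low genes. A gene was tested when it reached 1 TPM in either library of a pair, and it was called when the difference was at least 2 in size, which is 4-fold.

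Mucins are large glycoproteins whose repeat-rich central regions are covered with O-linked sugars. *Muc2*, *Muc5ac*, and *Muc5b* encode gel-forming mucins, which are secreted, joined by disulphide bonds into polymers, and give mucus its structure. *Muc5ac* and *Muc5b* are the main polymeric mucins of airway mucus, and *Muc2* is best known as the mucin of the intestine. *Muc1*, *Muc4*, and *Muc16* encode transmembrane mucins that stay on the apical surface of epithelial cells. *Agr2* encodes a disulphide isomerase of the endoplasmic reticulum that is needed to make gel-forming mucins, and *Spdef* encodes an ETS transcription factor that drives the maturation of goblet cells. In the olfactory mucosa, mucus comes mainly from Bowman's glands and bathes the cilia of olfactory sensory neurons (OSNs).

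In the GENCODE M21 annotation of GRCm38 (mm10), the gel-forming mucins lie side by side on chromosome 7. *Muc2* spans 141690340 to 141754693, *Muc5ac* spans 141788972 to 141819231, and *Muc5b* spans 141839070 to 141873084, all on the plus strand. The stretch between *Muc2* and *Muc5ac* is 34278 bases and that between *Muc5ac* and *Muc5b* is 19838 bases. *Muc6*, on the minus strand, ends 35020 bases before *Muc2*. *Muc1* lies on chromosome 3 from 89229057 to 89233381, *Muc4* on chromosome 16 from 32735886 to 32782391, *Agr2* on chromosome 12 from 35992907 to 36004087, and *Spdef* on chromosome 17 from 27714352 to 27728955 on the minus strand.

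The gene models bear on how well these values can be read. The longest annotated *Muc5ac* and *Muc5b* transcripts have 49 exons each and 10752 and 14964 bases. The longest annotated *Muc2* transcript has 2926 bases in 19 exons of a gene that spans 64354 bases, so the TPM of *Muc2* may depend on which of its 8 annotated transcripts were used. The percent of 50-base windows that occur more than once in the same transcript was 23.2% for *Muc5ac*, 21.9% for *Muc5b*, 10.1% for *Muc4*, and 1.28% for *Muc1*. No window of these genes, *Agr2*, or *Spdef* occurs in another of the 12 genes compared, which were the 8 named genes, *Muc6*, *Muc13*, *Muc20*, and *Agr3*. *Muc4* overlaps the opposite-strand gene *Muc20* by 4973 bases, including 627 of its 11757 exon bases. Whether the counting used strand is not given in the sources used here, and reads from these exon bases cannot be assigned to one gene without it.

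The sequences before the start of 3 genes are shown because *Muc4* and *Spdef* were called higher in both sorts, while *Muc2* differed in opposite directions. Promoters were taken from RefSeq (GRCm38.p6), which matched 6 of the 8 genes; *Muc5ac* and *Muc5b* had no entry in the table used. Each line gives the 250 bases before the start, 5′ to 3′ on the strand of the gene. These are chr16:32735636-32735885 on the plus strand for *Muc4*, chr7:141690090-141690339 on the plus strand for *Muc2*, and chr17:27728952-27729201 on the minus strand for *Spdef*. The last 4 bases of the *Spdef* stretch fall within the GENCODE gene. The RefSeq gene as a whole starts further upstream, at 27731003, so the stretch lies inside it, and positions are counted from the inner start. Capitals mark a match to TATAAA, or to the forkhead letters TGTTTAC or TATTTAC, searched on both strands.
Muc4: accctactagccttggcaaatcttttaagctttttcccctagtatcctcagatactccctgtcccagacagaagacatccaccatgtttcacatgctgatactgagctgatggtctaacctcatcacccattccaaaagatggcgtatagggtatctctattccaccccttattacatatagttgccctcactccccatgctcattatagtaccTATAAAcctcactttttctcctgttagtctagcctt
Muc2: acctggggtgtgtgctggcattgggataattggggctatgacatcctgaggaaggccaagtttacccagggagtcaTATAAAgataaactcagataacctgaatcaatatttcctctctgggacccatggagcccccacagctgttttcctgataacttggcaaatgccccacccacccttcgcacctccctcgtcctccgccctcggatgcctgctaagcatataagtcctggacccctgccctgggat
Spdef: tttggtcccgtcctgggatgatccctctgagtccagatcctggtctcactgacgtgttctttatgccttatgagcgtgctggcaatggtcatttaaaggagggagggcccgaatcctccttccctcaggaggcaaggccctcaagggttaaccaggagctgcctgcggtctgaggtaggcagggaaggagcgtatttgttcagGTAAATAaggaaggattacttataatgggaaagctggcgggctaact

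Counting back from the base before the start as -1, the first letter of TATAAA was at -36 in *Muc4* and at -174 in *Muc2*. *Muc1*, whose sequence is not shown, had TATAAA at -31. TATAAA occurs in 12.4% of the 32851 promoters of the same length. The match in *Spdef*, at -47, is TATTTAC read on the other strand, and either forkhead letter string occurs in 5.76% of promoters. The letters CCGGAT, an ETS-type core, were in none of the 6 promoters found and in 4.94% of all. The matches did not overlap. A match is a description of the letters and not of binding, and the lack of one says nothing about a factor.

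Reporter-positive cells of the enhancer 1 line had higher mucin RNA levels than reporter-negative cells. All 7 genes with values were higher in GFP+ cells, and 6 of 7 passed the 4-fold call, where 7.36% of the 16173 tested genes were called higher and 16.7% lower. Their median difference was 4.24, while the median of all tested genes was -0.88. The only gene that did not pass was *Muc2*. In the enhancer 2 line, *Muc4*, *Muc5b*, and *Spdef* passed, so 3 of 7 genes were called higher in tdTomato+ cells and 0 were called lower, where 8.20% of the 15777 tested genes were called higher and 11.4% lower. The median difference was 1.18 for the 7 genes and -0.23 for all tested genes. *Muc1* and *Agr2* were higher by less than 4-fold, and *Muc2* and *Muc5ac* were lower by less than 4-fold. The 3 genes were called higher in both lines, which held for 567 of the 15033 genes tested in both (3.77%). Because the set was chosen with earlier results of these data known, these counts are a description only.

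The background moves with the scaling in the GFP line. Scaling the libraries by the median ratio moved the median of all tested genes by 0.81 and changed the split of calls from 7.36% higher and 16.7% lower to 11.3% higher and 9.54% lower. Under that scaling *Muc2* also passed the 4-fold call, with a difference of 2.18. In bulk samples such as these, fewer cells of a type and less RNA per cell cannot be told apart.

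**Figure D1:**
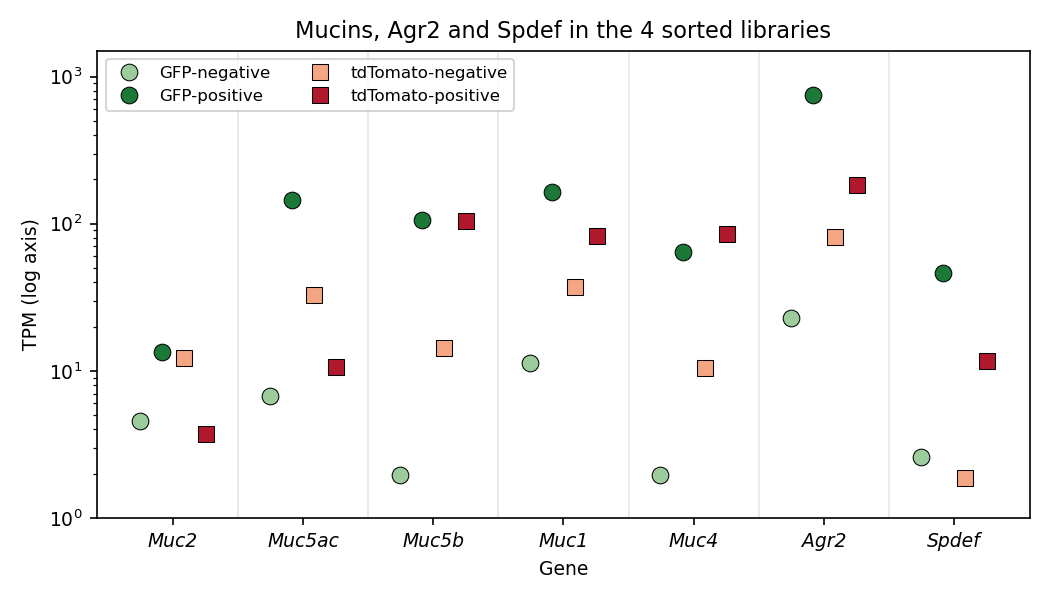
TPM of each of the 7 genes (log10 axis) in the 4 libraries, with 1 point per library and no error bars because each group has 1 library. *Agr2* is the highest gene in each library, at 751.1 TPM in GFP+ cells, and *Muc5ac* is at 144.9 TPM in GFP+ cells and 10.7 TPM in tdTomato+ cells.

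*Muc5b*, the gel-forming mucin that is made in airway glands and secretory cells, was called higher in both sorts. Its TPM was 1.96 in GFP- cells, 106.0 in GFP+ cells, 14.2 in tdTomato- cells, and 104.7 in tdTomato+ cells. In TPM the reporter-positive libraries of the 2 lines were close to each other (-0.02 for tdTomato+ minus GFP+), but this difference was -0.78 with median-ratio scaling and -2.11 with scaling to mature OSN markers. The difference was 5.18 in the GFP line, a TPM ratio of 54.2. It was 2.80 in the tdTomato line, a TPM ratio of 7.38.

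*Muc5ac*, the polymeric mucin typical of surface goblet cells, was called higher in the GFP line, as its neighbour was, and parted from it in the tdTomato line. Its TPM was 6.70 in GFP- cells, 144.9 in GFP+ cells, 32.9 in tdTomato- cells, and 10.7 in tdTomato+ cells. GFP+ cells had the highest level of the 4 libraries, and tdTomato+ cells had less than tdTomato- cells. The difference was 4.24 in the GFP line and -1.54 in the tdTomato line, where the negative library had 3.08 times the TPM of the positive one. This second difference did not reach 4-fold.

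*Muc2*, the least abundant of the 3 gel-forming mucins of the set in both reporter-positive libraries, showed a similar reversal at lower levels. Its TPM was 4.55 in GFP- cells, 13.4 in GFP+ cells, 12.2 in tdTomato- cells, and 3.74 in tdTomato+ cells. The differences were 1.38 in the GFP line and -1.48 in the tdTomato line, and neither reached 4-fold. Summed over the 3 gel-forming mucins, TPM was 13.2 in GFP- cells, 264.3 in GFP+ cells, 59.3 in tdTomato- cells, and 119.1 in tdTomato+ cells. The sum was thus 20.02 times as high in GFP+ as in GFP- cells and 2.01 times as high in tdTomato+ as in tdTomato- cells.

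**Figure D2:**
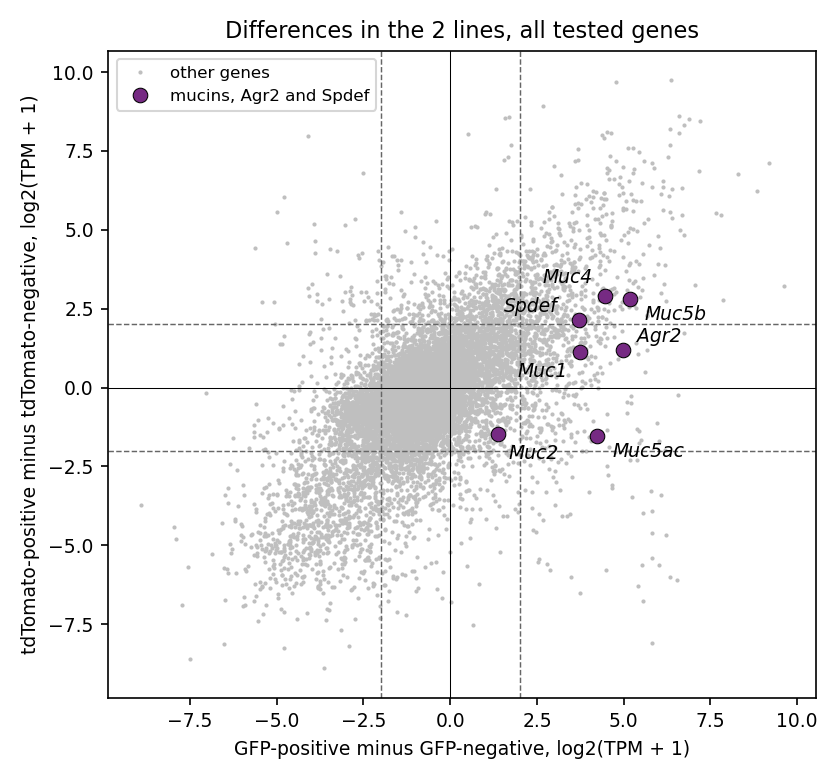
Difference of log2(TPM + 1) of each of the 7 genes in the GFP line (x axis) and in the tdTomato line (y axis), with 1 point per gene and lines at the 4-fold call. *Muc4*, *Muc5b*, and *Spdef* lie past the call on both axes, and *Muc5ac* (4.24 and -1.54) and *Muc2* (1.38 and -1.48) lie below 0 on the y axis.

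Of the transmembrane mucins, *Muc4*, a mucin that also carries EGF-like domains, was called higher in both sorts. It had 1.97 TPM in GFP- cells, 64.6 TPM in GFP+ cells, 10.5 TPM in tdTomato- cells, and 85.8 TPM in tdTomato+ cells. Both reporter-positive libraries were well above both reporter-negative ones. The difference was 4.47 in the GFP line, a TPM ratio of 32.9, and 2.92 in the tdTomato line, a TPM ratio of 8.17.

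*Muc1*, the broadly expressed epithelial mucin, passed the call in the GFP line alone. It had 11.3 TPM in GFP- cells, 163.2 TPM in GFP+ cells, 37.4 TPM in tdTomato- cells, and 82.4 TPM in tdTomato+ cells. The order of libraries was the same as for *Agr2*, with GFP+ cells highest and GFP- cells lowest. The difference was 3.74 in the GFP line and 1.12 in the tdTomato line. Together the TPM of *Muc1* and *Muc4* was 13.3 in GFP- cells, 227.9 in GFP+ cells, 47.9 in tdTomato- cells, and 168.2 in tdTomato+ cells.

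*Agr2*, whose product helps fold gel-forming mucins, was the most abundant of the 7 genes in every library. Its TPM was 22.9 in GFP- cells, 751.1 in GFP+ cells, 81.2 in tdTomato- cells, and 184.7 in tdTomato+ cells. GFP+ cells stood far above the other 3 libraries. The difference was 4.97 in the GFP line, a TPM ratio of 32.8, and 1.18 in the tdTomato line, a TPM ratio of 2.28.

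*Spdef*, the goblet cell transcription factor, was low in both reporter-negative libraries. Its TPM was 2.60 in GFP- cells, 46.4 in GFP+ cells, 1.88 in tdTomato- cells, and 11.6 in tdTomato+ cells. It was called higher in both lines, with differences of 3.72 and 2.13. The call in the tdTomato line was lost with a pseudocount of 10, which gave 0.86.

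The composition of the mucin RNA differed between libraries. A ratio of 2 genes within a library does not depend on how the library was scaled. The ratio of *Muc5b* to *Muc5ac* was 0.292 in GFP- cells, 0.731 in GFP+ cells, 0.431 in tdTomato- cells, and 9.81 in tdTomato+ cells. *Muc5ac* thus exceeded *Muc5b* in 3 libraries and was far below it in tdTomato+ cells, where the ratio was 22.7 times that in tdTomato- cells and 13.4 times that in GFP+ cells. The ratio of *Muc4* to *Muc1* was 0.173 in GFP- cells, 0.396 in GFP+ cells, 0.281 in tdTomato- cells, and 1.04 in tdTomato+ cells. It was highest in tdTomato+ cells as well, though by a smaller factor.

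**Figure D3:**
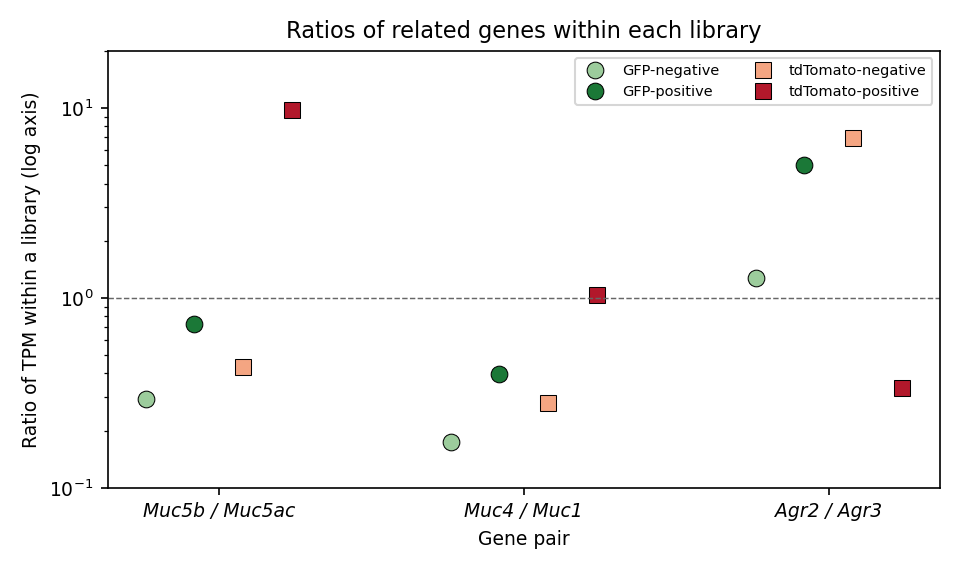
Ratio of TPM values within each library (log10 axis) for *Muc5b* to *Muc5ac*, *Muc4* to *Muc1*, and *Agr2* to its homologue *Agr3*, with 1 point per library. In tdTomato+ cells the first is 9.81 and the last is 0.336, while in the other 3 libraries the first is below 1 and the last is above 1.

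Of the summed TPM of the 7 genes, *Agr2* took 44.1% in GFP- cells, 58.2% in GFP+ cells, 42.7% in tdTomato- cells, and 38.2% in tdTomato+ cells. *Muc5ac* took between 11.2% and 17.3% in 3 libraries and 2.21% in tdTomato+ cells. *Muc5b* took between 3.76% and 8.22% in those 3 libraries and 21.7% in tdTomato+ cells. Of these neighbouring genes, *Muc5b* thus held the larger share in tdTomato+ cells and *Muc5ac* in the other 3 libraries. *Muc4* took between 3.78% and 5.52% in the same 3 libraries and 17.7% in tdTomato+ cells. The summed TPM itself was 52.0 in GFP- cells, 1289.7 in GFP+ cells, 190.2 in tdTomato- cells, and 483.6 in tdTomato+ cells, so the log2 ratio of the sums was 4.63 in the GFP line and 1.35 in the tdTomato line.

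**Figure D4:**
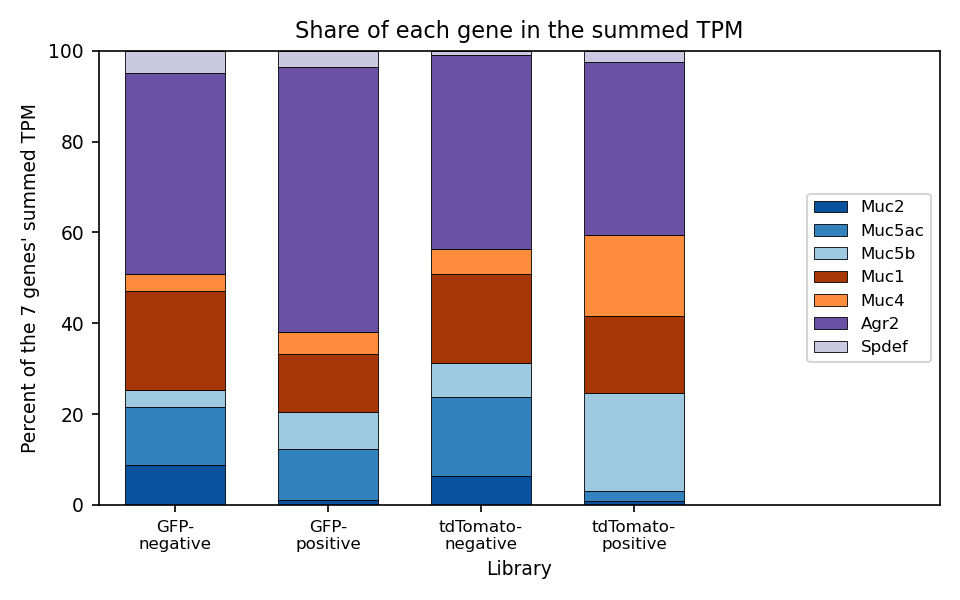
Percent of the summed TPM of the 7 genes that each gene holds, as bars stacked to the whole for the 4 libraries. *Agr2* holds the greatest share in each library, and the share of *Muc5b* is 21.7% in tdTomato+ cells and at most 8.22% in the others.

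Reporter-negative cells of the 2 lines did not have the same mucin levels. These libraries also serve as the low side of the sorts above, so the comparisons share libraries, and line, reporter, and age range differ together and cannot be told apart. *Muc5b* and *Muc5ac* were higher by at least 4-fold in tdTomato- than in GFP- cells, with differences of 2.36 and 2.14. That is 2 of 7 genes, where 3.60% of the 15899 tested genes were called higher and 4.79% lower. *Muc4* (1.95), *Agr2* (1.78), *Muc1* (1.64), and *Muc2* (1.26) were higher by less than 4-fold, and *Spdef* differed by -0.32. Both calls were lost with a pseudocount of 10 and with scaling to mature OSN markers. Markers of other cells differed between these libraries too, and their part in the result was not tested. Microvillar and ionocyte markers were called higher in 4 of 6 cases, with a median of 2.26 and summed TPM of 48.9 in GFP- cells and 255.4 in tdTomato- cells. Bowman gland markers were called lower in 3 of 6 cases, with a median of -1.50.

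Of 15 other mucin family genes, 8 had a value and 6 were tested in the GFP line. There 2 were called higher and 1 lower, with a median of 1.26. In the tdTomato line, 1 of 4 tested was called higher and 0 lower, with a median of 0.78. *Muc20*, the transmembrane mucin whose gene overlaps *Muc4*, had 2.07, 26.9, 13.8, and 25.8 TPM in GFP-, GFP+, tdTomato-, and tdTomato+ cells. It was called higher in the GFP line (3.19) and differed by 0.85 in the tdTomato line. *Muc13*, another transmembrane mucin, had 10.7, 27.3, 3.20, and 29.5 TPM in the same order, and it was called in the tdTomato line (2.86) and not in the GFP line (1.27).

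*Muc15*, a membrane-bound mucin, had 3.88 TPM in GFP+ cells and 2.84 TPM in tdTomato- cells and was listed at 0 in the other 2 libraries. Its differences were 2.29 and -1.94, and both depend on the pseudocount. *Muc19*, a gel-forming mucin of salivary glands, reached 1.24 TPM in GFP+ cells at most. *Emcn*, a sialomucin of endothelial cells, was the gene called lower, with 6.397 TPM in GFP- cells and 0.107 TPM in GFP+ cells, though with scaling to mature OSN markers 0 genes of this list were called lower. *Cd164*, a widely expressed sialomucin, had between 172.1 and 407.8 TPM and differed by 1.24 and 0.70.

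Among regulators of secretory cells, 7 of 10 tested in the GFP line were called higher and 0 lower, with a median of 3.44. In the tdTomato line 4 of 9 were called higher and 0 lower, with a median of 1.80. *Foxa1*, a forkhead factor of endodermal and airway epithelia, had 1.63, 122.6, 10.4, and 214.0 TPM in GFP-, GFP+, tdTomato-, and tdTomato+ cells, and it was called in both lines (5.55 and 4.24). *Klf5*, a zinc finger factor of epithelia, was also called in both (3.20 and 2.16). *Elf3*, an epithelial ETS factor, passed in the GFP line (4.96) and had a difference of 1.80 in the tdTomato line. *Xbp1*, which expands the secretory machinery under the unfolded protein response, differed by 1.68 and 0.30 and passed in neither.

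*Ern2*, named after its values were seen, encodes the IRE1β sensor of mucous cells that acts on *Xbp1*. It was listed at 0 in GFP- cells and had 11.8 TPM in GFP+ cells, 2.58 TPM in tdTomato- cells, and 1.45 TPM in tdTomato+ cells. The level was thus highest in GFP+ cells, which also had the highest TPM of each of the 7 genes except *Muc4*. In the tdTomato line *Ern2* differed by -0.55, which became 0.15 with scaling to mature OSN markers, while *Agr2* differed by 1.18.

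The list of mucus-associated secreted proteins also holds *Agr3*, described below. Of these genes, 9 of 11 tested in the GFP line were called higher and 0 lower, with a median of 5.33. In the tdTomato line 8 of 12 were called higher and 0 lower, with a median of 3.05. *Tff2*, a trefoil peptide that binds mucins, was listed at 0 in GFP- cells and had 787.0 TPM in GFP+ cells, 67.7 TPM in tdTomato- cells, and 645.4 TPM in tdTomato+ cells. *Bpifa1*, an abundant secreted protein of the upper airway, was called in both lines (6.07 and 3.01). *Ltf*, the iron-binding protein lactoferrin, differed by 1.34 and -0.79, the second becoming 0.30 with scaling to mature OSN markers, and *Lyz2*, a lysozyme also found in leukocytes, differed by 0.37 and 1.27.

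*Agr3*, named after its values were seen, is the homologue of *Agr2* and lies 43170 bases from it on the same strand. Its TPM was 18.1 in GFP- cells, 150.1 in GFP+ cells, 11.6 in tdTomato- cells, and 549.4 in tdTomato+ cells. It was called higher in both lines, with differences of 2.98 and 5.45. The ratio of *Agr2* to *Agr3* was 1.27 in GFP- cells, 5.01 in GFP+ cells, 6.99 in tdTomato- cells, and 0.336 in tdTomato+ cells. In tdTomato+ cells, then, *Agr3* was the more abundant of the pair. The summed TPM of multiciliated cell markers was also highest there, at 5831, and their part in this ratio was not tested.

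The enzymes that build mucin O-glycans differed less than the 7 genes. In the GFP line 5 of 26 tested were called higher and 1 lower, with a median of 0.49. Over all tested genes there, 7.36% were called higher and 16.7% lower, with a median of -0.88. In the tdTomato line 3 of 23 were called higher and 1 lower, with a median of 0.25. Of all tested genes there, 8.20% were called higher and 11.4% lower, with a median of -0.23. *Galnt18*, of the family that adds the first sugar, was called higher in both lines (3.29 and 3.09). *Galnt6* of the same family was called in the tdTomato line (2.62) and differed by 0.56 in the GFP line. *Galnt14* was the gene called lower in the GFP line (-2.89), with 233.5 TPM in GFP- and 30.7 TPM in GFP+ cells. *B3galt5*, named after its values were seen, was the gene called lower in the tdTomato line, from 3.15 TPM to a value listed at 0. Its difference of -2.05 was no longer called with median-ratio scaling or with scaling to mature OSN markers, where 0 of 23 enzymes were called lower. *St6galnac2*, a sialyltransferase, differed by -0.40 and -1.12, and the first value became 0.48 with median-ratio scaling. *St6galnac1*, which caps the first sugar with sialic acid and was named after its values were seen, had 10.6 TPM in GFP+ cells, 0.237 TPM in GFP- cells, and was listed at 0 in both tdTomato libraries. The size of the difference over the list rests on the scaling, since with scaling to mature OSN markers 24 of 26 enzymes were called higher in the GFP line, with a median of 3.03, where 49.6% of all tested genes were called higher, with a median of 1.99, and *Galnt14* differed by 0.14 and was not called.

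Markers of several cell types moved with the mucins, and their part in the results was not tested. All 6 Bowman gland markers were called higher in GFP+ cells and 5 of 6 in tdTomato+ cells, with medians of 4.74 and 3.14. Their summed TPM was 1732 in GFP- cells, 69491 in GFP+ cells, 219.5 in tdTomato- cells, and 1961 in tdTomato+ cells. Most of these sums is *Bpifb9a* and *Bpifb9b*, with 13474 and 55039 TPM in GFP+ cells and 402.7 and 1354 TPM in tdTomato+ cells. *Aqp5*, a water channel of glands, had 285.7 and 165.8 TPM in these libraries, and *Dmbt1*, a secreted scavenger receptor protein, had 654.6 and 9.44 TPM. The transcription factors *Sox9* and *Sox10*, named after their values were seen, had 18.0 and 19.7 TPM in GFP+ cells and 27.5 and 0.958 TPM in tdTomato+ cells. *Sox10* was the marker not called in the tdTomato line, with a difference of -1.17. For multiciliated cells, 6 of 8 markers were called higher in the GFP line and 8 of 8 in the tdTomato line, and their summed TPM was 282.1, 1678, 290.5, and 5831 in GFP-, GFP+, tdTomato-, and tdTomato+ cells.

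Horizontal basal cell markers differed in opposite directions in the 2 lines, as *Muc5ac* and *Muc2* did. In the GFP line 5 of 5 were called higher, and in the tdTomato line 0 were called higher and 2 lower, with medians of 3.58 and -1.72. With scaling to mature OSN markers the second median was -0.65 and 0 of 5 were called. Their summed TPM was 47.0, 666.9, 132.1, and 34.8 in the same order of libraries. Microvillar and ionocyte markers were called higher in 3 of 5 cases in the GFP line, and in the tdTomato line 0 of 6 were called higher and 1 was called lower, with a median of -0.88 that became 0.16 with scaling to mature OSN markers. Sustentacular cell markers, of the supporting cells of the epithelium, were called higher in 6 of 8 cases in the GFP line. In the tdTomato line 2 of 8 were called higher, and by sign 6 were higher and 2 lower. Their summed TPM was 1001, 7630, 1649, and 5028. The 2 lower ones reversed between the GFP and tdTomato lines. They were *Cyp2g1* (2.06 and -1.54) and *Cyp1a2* (3.02 and -1.67), the latter named after its values were seen. The Bowman gland marker *Sox10* also reversed (2.30 and -1.17), so the pattern was not limited to basal cell markers.

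Reporter-positive cells were sorted for the activity of a TAAR enhancer on the transgene, and the *Taar* genes themselves were called higher in 10 of 14 cases in the GFP line and 12 of 14 in the tdTomato line. Markers of mature OSNs were called lower in 10 of 10 cases in GFP+ cells, with a median of -3.02. In tdTomato+ cells 0 of 10 passed, with a median of -1.11. Their summed TPM was 27437 in GFP- cells, 3018 in GFP+ cells, 28119.5 in tdTomato- cells, and 12535 in tdTomato+ cells. Leukocyte markers were called lower in 5 of 6 cases in the GFP line and 4 of 6 in the tdTomato line, and *Lyz2* was not among those called.

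**Figure D5:**
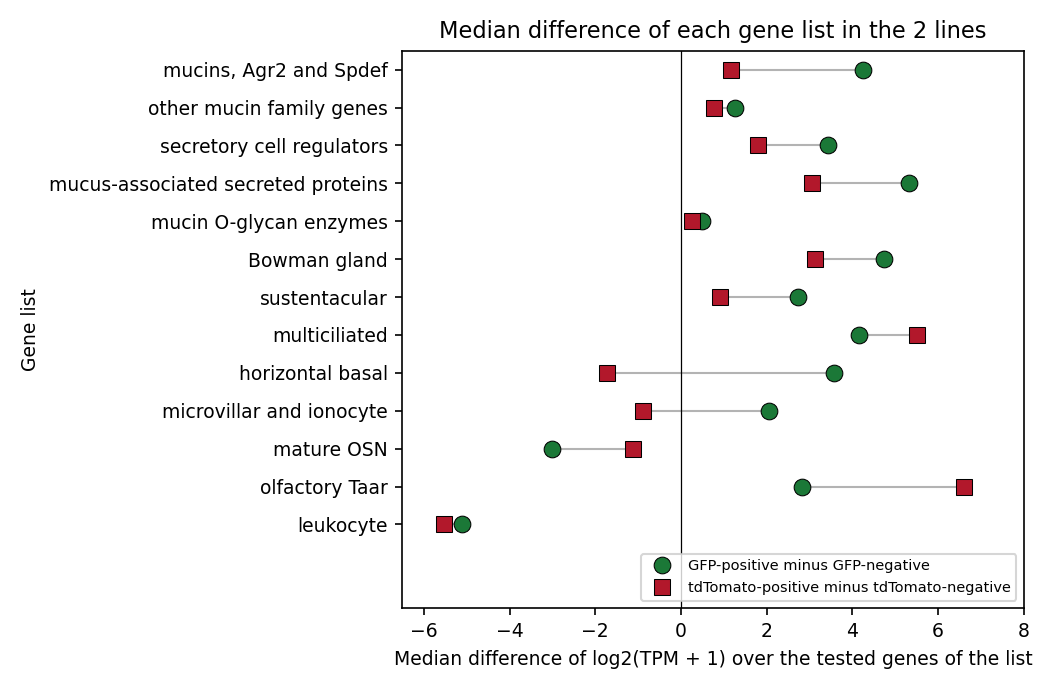
Median difference of log2(TPM + 1) over the tested genes of each list (x axis) in the GFP line and in the tdTomato line. The 7 genes are at 4.24 and 1.18, and the O-glycan enzymes are at 0.49 and 0.25. The horizontal basal cell markers lie on opposite sides of 0 at 3.58 and -1.72. The medians of all tested genes, not drawn, were -0.88 and -0.23.

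For each of the 7 genes, the most similar patterns were sought among 13003 genes that reached 10 TPM in any library, by the Euclidean distance of their log2(TPM + 1) values centred over the 4 libraries. With 4 points this is a description only. The genes nearest to *Muc4* were *Gmpr* (0.10), *Sftpd* (0.19), and *Ifitm1* (0.30), and those nearest to *Muc5b* were *AI463170* (0.28), *Sftpd* (0.43), and *Ifitm1* (0.46). *Muc4* and *Muc5b* thus had *Sftpd*, which encodes the collectin surfactant protein D, and *Ifitm1* in common, and they were the closest pair among the 7 genes (0.51). The pattern of *Muc5ac* was nearest to those of *Krt17* (0.39), a basal cell keratin, *Bricd5* (0.45), and *Snord49a* (0.47).

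The nearest genes to *Muc2* were *Mpp6* (0.28), *Pdlim3* (0.30), and *Slc31a2* (0.45), and *Muc2* and *Muc5b* were the farthest pair among the 7 genes (4.26). *Muc1* had *Atp13a5* (0.23), the epithelial keratin *Krt18* (0.23), and *Cyr61* (0.27) nearest. The gene nearest to *Agr2* was *Fkbp11* (0.35). *Spdef* had *C2cd4b* (0.25), *Krt23* (0.31), and *Chmp4c* (0.34) nearest. None of the 3 nearest genes of *Muc5ac* was shared with *Muc5b*.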

How the data were processed

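RNA-seq of FACS-sorted MOE cells was analysed in 4 libraries, 1 for each group named by the labels. The authors deposited TPM values per gene symbol. The methods name Hisat2 for mapping to mm10 and Cufflinks for quantification, while the submitters' processing notes name Trimmomatic 0.36 and Salmon 1.4.0. Which of these gave the TPM values is not settled by either source, and the annotation, the use of strand, and any gene filter are not given in the sources used here. The methods describe Smart-seq2 libraries, and the labels name other kits. TPM holds no depth, so no intervals or detection limits were calculated.

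From the deposited TPM, differences of log2(TPM + 1) were taken between libraries, for genes at 1 TPM or more in either, and called at 4-fold. Sums were compared as log2 ratios. The members and gene lists were chosen with earlier results of these data known. The named genes were the 8 members, other mucins at 1 TPM or more in any library, the 4 highest genes of each list (given by count where a list is only summarised), and the 3 genes nearest in pattern to each member. Other genes are marked where they are named, and 1 result is not reported here. Alternatives were pseudocounts of 0.1 and 10, no minimum or a minimum of 5 TPM, median-ratio scaling over the 11943 genes at 1 TPM or more in all 4 libraries, rescaling without the 24 genes among the 10 highest of any library, and scaling to 10 mature OSN markers. The code for the calls was also run on simulated data. That run cannot show how reliable the calls reported here are, because read depth is unknown and no group has replicates. *Dmbt1* and *Lyz2* each stand in 2 lists. Gene positions came from GENCODE M21 (GRCm38) and promoters from RefSeq (GRCm38.p6). Python 3.11.15, NumPy 2.4.6, pandas 2.3.3, and matplotlib 3.10.9 were used.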

Additional observations from a re-analysis of the deposited data

Results flagged for a closer look

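*Muc5ac* and *Muc2* differed in opposite directions in the 2 lines, with 1 library for each group, and the difference between the lines was not tested. *Muc5ac* differed by 4.24 between GFP-positive and GFP-negative cells and by -1.54 between tdTomato-positive and tdTomato-negative cells. *Muc2* differed by 1.38 in the GFP line and by -1.48 in the tdTomato line. The GFP value of *Muc5ac* was the only one of these 4 past 4-fold. With scaling to mature OSN markers the tdTomato differences were smaller in size, at -0.49 for *Muc5ac* and -0.51 for *Muc2*.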

How the results depend on the processing

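Each of the 7 genes kept its sign in each of the 3 comparisons under every pseudocount and scaling tried. The same held under every minimum that a gene passed. *Spdef* was not tested between the reporter-negative libraries with a minimum of 5 TPM. The tdTomato differences of *Muc5ac* and *Muc2* kept their sign but not their size with scaling to mature OSN markers. The log2 ratio of the summed TPM in the GFP line was 5.52 with median-ratio scaling and 7.70 with scaling to mature OSN markers, and in the tdTomato line it was 2.44 with the latter scaling. That scaling also raised the number of genes called higher in tdTomato-positive cells to 5, where 14.3% of all tested genes were then called higher and 6.83% lower. Between the reporter-negative libraries, 0 genes were called with a pseudocount of 10 and 0 with scaling to mature OSN markers, and the cause was not tested for any of these. The other 45 alternative values of these counts and sums stayed within 1.5 times of the count or 0.58 of the log2 ratio reported. Scaling to mature OSN markers moved the median of all tested genes by 2.86 in the GFP line and 1.01 in the tdTomato line, and gave 49.6% of genes higher and 3.99% lower in the GFP line. A pseudocount of 10 gave 2.25% higher and 4.50% lower there, 2.90% and 2.87% in the tdTomato line, and 0.522% and 0.572% between the reporter-negative libraries. No paired analysis was possible because the groups compared share fewer than 2 replicate numbers. Depth is unknown, so how far low values such as those of *Muc2* and *Spdef* can be told from 0 is unknown too.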
